A study of Homo sapiens with 2 samples.

Results

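The genes described here are 55 genes of mitosis, listed by name for their roles in mitotic entry, the spindle, the kinetochore, chromosome condensation and anaphase. Of these, 54 had at least 1 probe set whose only gene symbol was the gene's own, 144 probe sets in all, out of 18244 genes and 49495 probe sets on the array. The cells were of MDA-MB-231, an established line from a human breast carcinoma, which is mesenchymal in form and makes no hormone receptors. A clone with stable knockdown of UGT8, the ceramide galactosyltransferase, was set against parental cells as the control. Both were grown in medium with 5.6 mmol/L glucose and harvested 48 h after passage, and each gave 1 array of total RNA. The effect of the knockdown and that of growing up from 1 clone cannot be told apart, and with 1 array a group nothing below could be checked against replicates or tested.

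Mitosis begins when CDK1, bound to cyclin A or cyclin B and freed of inhibitory phosphate by CDC25 phosphatases, phosphorylates its substrates. Kinetochores then assemble on centromeres that carry the histone variant CENPA and grip spindle microtubules, condensins compact the chromosomes, and the spindle checkpoint holds the anaphase-promoting complex (APC/C) until every kinetochore is attached. Many of these genes are transcribed late in the cell cycle through a promoter element called the cell cycle homology region, bound by the MuvB complex with B-MYB and FOXM1, often beside CCAAT boxes that bind NF-Y. Genes of DNA replication are transcribed earlier, largely through E2F sites. In tumour cells the mitotic transcripts are commonly read as a measure of proliferation.

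The values are log2 RMA values, and each difference is the UGT8 knockdown value minus the control value on that scale. A gene was read by its brightest probe set, and a floor was set on the mean of both arrays at the median of the probe sets (6.64). UGT8 was lower by each of its 3 probe sets, the brightest at 6.61 on the knockdown array against 8.95 on the control array (a difference of -2.34). The 6 markers of the line, VIM, CD44, AXL, EGFR, MSN and CAV1, read from 9.39 to 13.9 on the knockdown array and from 9.92 to 13.9 on the control array. Of 7 luminal or epithelial genes, the hormone receptor genes ESR1 and PGR were below the floor. The other 5, ERBB2, GATA3, FOXA1, CDH1 and EPCAM, lay past it. Among these EPCAM read 8.97 on the knockdown array against 8.34 on the control array (0.62), and CDH1 7.66 against 8.01 (-0.35). The leukocyte markers PTPRC and CD3E were below the floor on both arrays. PECAM1, an endothelial marker, read 7.37 on the knockdown array against 8.46 on the control array, and LUM, a fibroblast marker, 6.69 on the knockdown array against 8.04 on the control array. The other endothelial markers, VWF and CDH5, and the other fibroblast markers, DCN and PDGFRA, were below the floor. The difference between the 3' and 5' probe sets of ACTB, a sign of RNA quality, was 0.90 on the knockdown array and 0.49 on the control array, while that of GAPDH was 0.19 on the knockdown array and 0.18 on the control array. The part of these readings in the differences below was not tested.

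Most mitotic transcripts stood at nearly the same value on both arrays. Of the 55 genes, 53 lay past the floor. None of the 53 passed through its value on 1 array alone, since all read above the floor on both. At least 1.5-fold, 4 were higher on the knockdown array, SPC24, CENPK, NCAPG and FOXM1, which is 7.55% of the 53, against 4.96% of all 10439 genes past the floor, so the share is near that of all genes. None was at least 1.5-fold lower, against 6.74% of all genes. Of the 53, 43 (81.1%) differed by less than 0.32 on the log2 scale, against 65.9% of all genes. By more than that, 9 were higher on the knockdown array, against 18.0% of all genes, and 1, NUF2, was lower, against 16.1%. The median difference was 0.09, with 40 above 0 and 13 below, while the median of all genes was 0.03 and 53.4% of them were above 0. CENPI lay below the floor, and PTTG1, the separase inhibitor securin, had no probe set with its symbol alone.

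**Figure D1:**
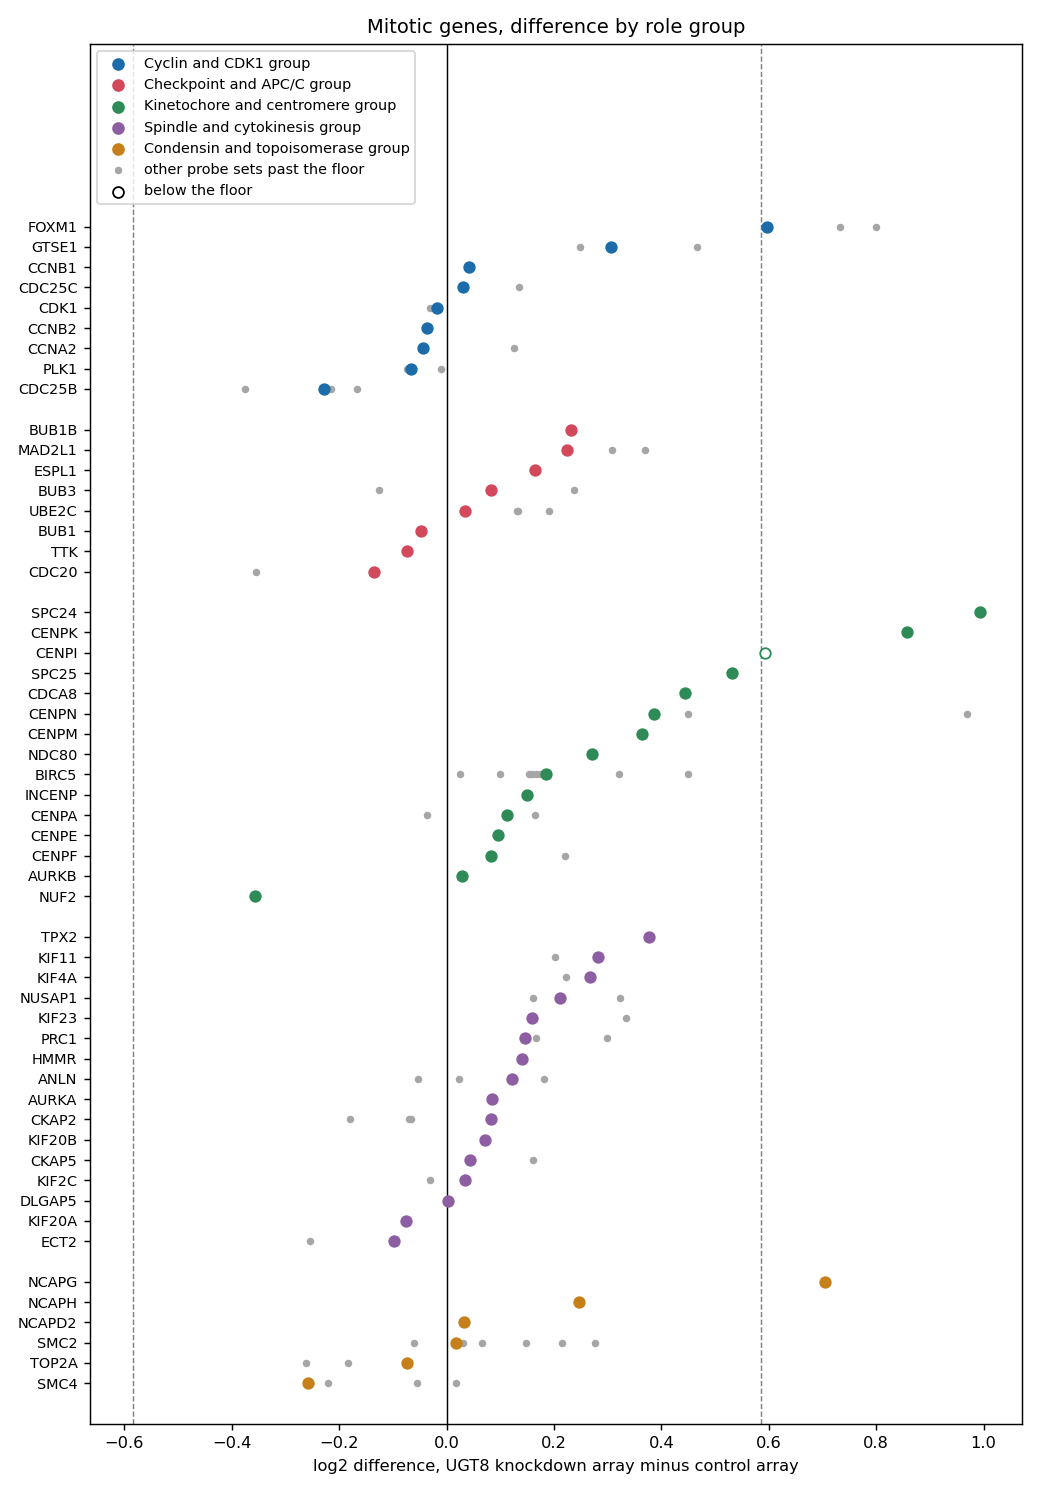
Log2 difference (UGT8 knockdown array minus control array) of each mitotic gene, by role group. Large points are the brightest probe set of a gene, grey points its other probe sets past the floor, and the dashed lines mark 1.5-fold; 4 filled large points lie beyond the upper line and none beyond the lower one.

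**Figure D2:**
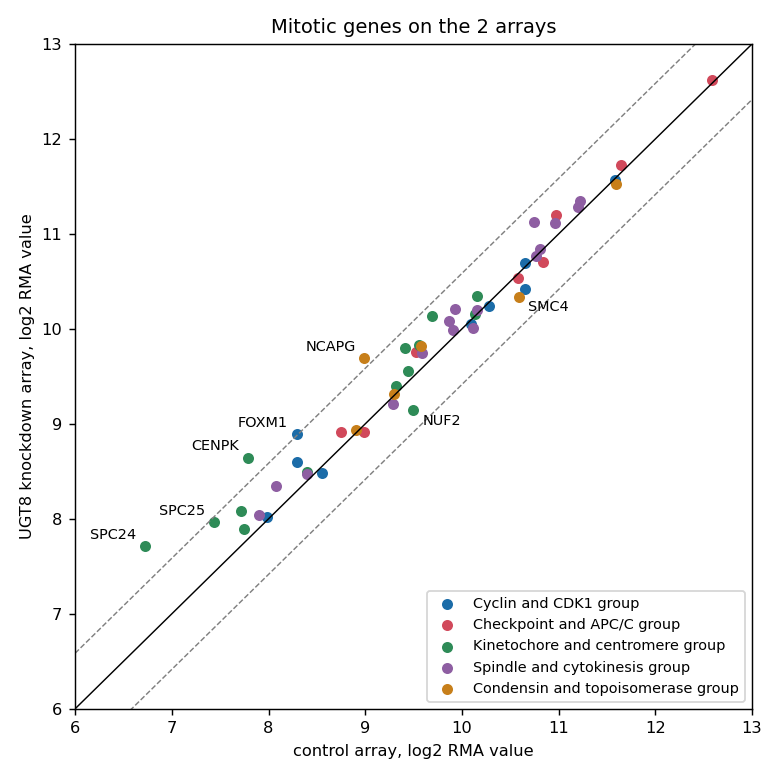
Log2 RMA value on the UGT8 knockdown array (vertical axis) against the control array (horizontal axis) for the 53 mitotic genes past the floor, 1 point a gene. The solid line is equality and the dashed lines mark 1.5-fold; most points follow the solid line, while SPC24, CENPK, NCAPG and FOXM1 lie on or above the upper dashed line.

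The spread between probe sets of 1 gene gives a scale for these values, although it is no replicate error. For 31 mitotic genes 2 or more probe sets lay past the floor, and the SD of their differences had a median of 0.09. Over 6067 such genes of the array that median was 0.08. Probe sets of a gene can share probes, so these readings are not all independent. Of the 31 genes, 17 had all their probe sets above 0, 6 had all below 0, and 8 had them on both sides. The 6 were CDK1, PLK1, CDC20, CDC25B, ECT2 and TOP2A. The 8 were CCNA2, BUB3, CENPA, KIF2C, CKAP2, ANLN, SMC2 and SMC4, so that no direction can be given for these. For 9 of the 53 (CDK1, GTSE1, TTK, CDC20, UBE2C, TPX2, PRC1, HMMR and ECT2) the brightest probe set is of a kind whose probes can match other transcripts. By its brightest probe set, 19 of the 53 genes differed by less than the median SD of 0.08.

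All differences are relative to the bulk of the transcripts, since RMA aligns the arrays. The hybridisation spike-ins read higher in the knockdown, with a median difference of 0.51. Scaling to these RNAs lowers every difference given here by 0.51 and so moves the median of all genes to -0.48. The median of the 53 becomes -0.43 and 5 of them remain above 0. Centring on the poly-A controls, which differed by 0.08, leaves SPC24, CENPK and NCAPG past 1.5-fold and takes FOXM1 below it.

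Promoter letters, which had no part in choosing the genes, were searched for elements known from late cell cycle genes. RefSeq promoter entries on GRCh38.p14, each of 250 bases before and 50 after an annotated start, were found for 47 of the 55 genes, 59 entries in all. The letters of the cell cycle homology region (TTTGAA or TTCGAA, either strand) stood in 38 of the 59 (64.4%), against 11.9% of the promoter entries of genes past the floor and 16.4% of all 35116 entries. Within 50 bases of the start they stood in 31 of the 59 (52.5%), against 3.58% of the entries of genes past the floor. CCAAT stood in 41 (69.5%), against 34.7%. The letters of E2F sites searched (TTTCGCG or TTTGGCG or TTTCCCG, either strand) stood in 7 (11.9%), against 10.4%. In the 83 entries of other mitosis genes, described further on, the homology region stood in 41 (49.4%), within 50 bases of the start in 30 (36.1%), CCAAT in 46 (55.4%) and E2F letters in 23 (27.7%). The 26 entries of replication genes held E2F letters in 16 (61.5%), CCAAT in 17 (65.4%) and the homology region in 1 (3.85%). Entries of 1 gene can overlap, as those of CDC25C and AURKB do, so 1 genomic site can be counted in more than 1 entry. A match is a description of letters and does not show that a factor binds there.

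**Figure D3:**
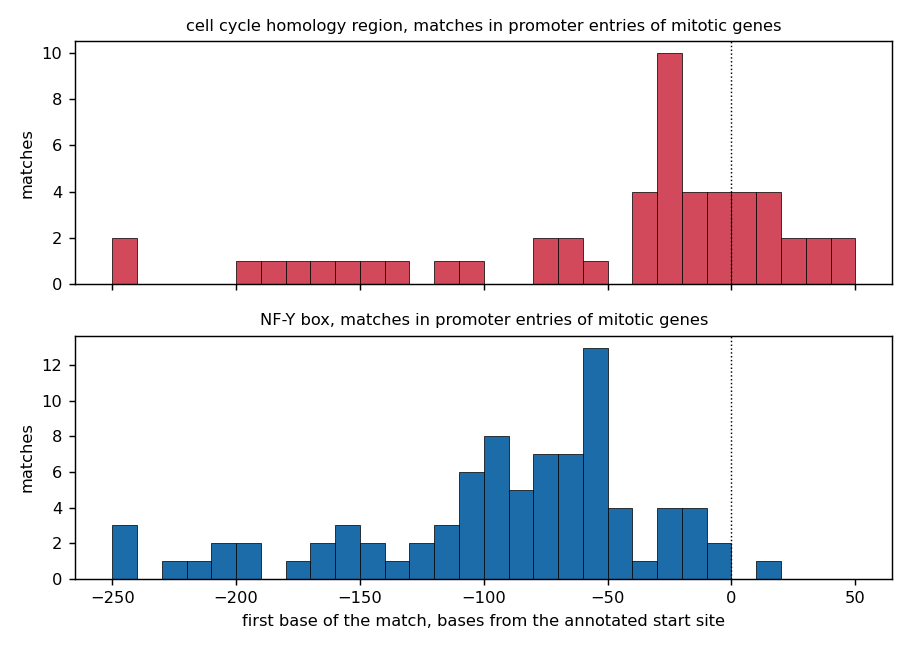
Position of matches in the 59 promoter entries of 47 mitotic genes, in bins of 10 bases from the annotated start site (horizontal axis, bases), with the number of matches on the vertical axis. Of the 52 matches of the homology region (top), 36 start within 50 bases of the start site, and of the 85 matches of the NF-Y box (bottom), 53 start between 120 and 41 bases before it.

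The windows below run from 120 bases before to 30 after the annotated start, 5′ to 3′ on the strand of the gene, on GRCh38.p14 from RefSeq. Capitals mark matches of the homology region, CCAAT or E2F letters on either strand; CCAAT on the opposite strand reads ATTGG, and TTTGAA reads TTCAAA. The first set shows genes whose transcripts differed by less than 0.32 between the arrays and whose homology region stands close before the start, CCNB2 (difference -0.04), PLK1 (-0.07) and PRC1 (0.15):
CCNB2, chr15:59105026-59105175, plus strand: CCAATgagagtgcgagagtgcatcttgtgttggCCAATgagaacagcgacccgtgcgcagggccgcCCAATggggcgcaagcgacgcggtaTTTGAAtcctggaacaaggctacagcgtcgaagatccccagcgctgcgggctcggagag
PLK1, chr16:23678769-23678918, plus strand: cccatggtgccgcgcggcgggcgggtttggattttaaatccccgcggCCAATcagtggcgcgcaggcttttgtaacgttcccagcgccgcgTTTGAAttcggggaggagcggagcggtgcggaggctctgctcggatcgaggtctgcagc
PRC1, chr15:90994506-90994655, minus strand: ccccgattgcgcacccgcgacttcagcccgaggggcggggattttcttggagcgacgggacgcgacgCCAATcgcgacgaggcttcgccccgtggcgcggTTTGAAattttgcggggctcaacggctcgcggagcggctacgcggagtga
The windows of NCAPG and CENPK are shown because their transcripts were among the 4 that were at least 1.5-fold higher on the knockdown array. NCAPG has the homology region, and CENPK has CCAAT boxes alone:
NCAPG, chr4:17810859-17811008, plus strand: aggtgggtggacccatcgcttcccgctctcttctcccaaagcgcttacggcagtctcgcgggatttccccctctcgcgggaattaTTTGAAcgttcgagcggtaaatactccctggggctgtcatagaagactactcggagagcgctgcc
CENPK, chr5:65563139-65563288, minus strand: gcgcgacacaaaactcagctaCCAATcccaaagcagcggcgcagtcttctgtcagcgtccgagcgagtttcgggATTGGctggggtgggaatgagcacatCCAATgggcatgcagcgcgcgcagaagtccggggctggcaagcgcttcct
The last set is the Ndc80 complex, whose 4 subunits act together and whose transcripts lay on both sides of 0:
NDC80, chr18:2571437-2571586, plus strand: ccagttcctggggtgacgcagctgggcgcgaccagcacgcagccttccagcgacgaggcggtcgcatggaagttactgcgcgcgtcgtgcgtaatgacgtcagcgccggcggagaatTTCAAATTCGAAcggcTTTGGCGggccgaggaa
NUF2, chr1:163321834-163321983, plus strand: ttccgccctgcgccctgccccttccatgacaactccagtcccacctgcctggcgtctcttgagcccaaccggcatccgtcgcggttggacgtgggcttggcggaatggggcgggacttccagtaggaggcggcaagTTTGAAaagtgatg
SPC24, chr19:11155753-11155902, minus strand: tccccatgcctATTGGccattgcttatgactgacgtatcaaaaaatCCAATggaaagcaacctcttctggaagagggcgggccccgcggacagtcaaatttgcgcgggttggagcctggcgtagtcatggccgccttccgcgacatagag
SPC25, chr2:168890401-168890550, minus strand: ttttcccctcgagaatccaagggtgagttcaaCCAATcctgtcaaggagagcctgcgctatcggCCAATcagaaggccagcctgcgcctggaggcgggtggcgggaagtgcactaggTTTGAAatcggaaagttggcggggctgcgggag
In the last set SPC24 (0.99) has no match of the homology region, while NUF2 (-0.36), NDC80 (0.27) and SPC25 (0.53) have one or more. Of the genes past the floor with an entry, the 35 with the homology region in any entry had a median difference of 0.11, from -0.36 to 0.70. The 10 without it had a median of 0.06, from -0.08 to 0.99. The ranges overlap over most of their length.

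CCNB1, CCNB2, CCNA2, CDK1, PLK1 and CDC25C were near level between the arrays, while FOXM1 and GTSE1 were higher and CDC25B lower on the knockdown array in all their probe sets. CCNB1, the main mitotic cyclin, read 10.69 on the knockdown array and 10.65 on the control array (0.04), and CCNB2 read 10.24 on the knockdown array and 10.28 on the control array (-0.04). CDK1, the mitotic kinase, read 11.56 on the knockdown array and 11.58 on the control array, with its probe sets past the floor at -0.03 and -0.02. These differences were smaller than the median SD between probe sets of 1 gene (0.08), which does not measure variation between arrays or cultures. CCNA2, which acts from S phase into mitosis, read 10.05 on the knockdown array and 10.09 on the control array, and its other probe set differed by 0.13. PLK1, the polo-like kinase of mitotic entry and spindle assembly, read 8.49 on the knockdown array and 8.55 on the control array.

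The CDC25 phosphatases of this group remove the inhibitory phosphates from CDK1. CDC25C read 8.02 on the knockdown array and 7.99 on the control array (0.03), and its other probe set differed by 0.13. CDC25B read 10.42 on the knockdown array and 10.65 on the control array, 1.17-fold lower (-0.23), and all 5 of its probe sets were lower, from -0.38 to -0.17. FOXM1, which activates late cell cycle genes, read 8.89 on the knockdown array and 8.29 on the control array, 1.51-fold higher (0.60). All 3 FOXM1 probe sets were higher, at 0.60, 0.73 and 0.80 (0.71 ± 0.10, SD over probe sets). GTSE1, a microtubule-associated protein of G2 and S phase, read 8.60 on the knockdown array and 8.30 on the control array (0.31), with 3 probe sets from 0.25 to 0.47. The group of 9 had a median of -0.02. FOXM1 alone was past 1.5-fold (11.1% of the 9), against 4.96% of all genes that were higher.

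Spindle checkpoint and APC/C genes were close to level (median 0.06). All 8 past the floor differed by less than 0.32, against 65.9% of all genes. MAD2L1, which holds CDC20 in the checkpoint complex, read 11.20 on the knockdown array and 10.97 on the control array, and its 3 probe sets past the floor were all higher, from 0.22 to 0.37. BUB1B, which encodes the checkpoint protein BubR1, read 9.75 on the knockdown array and 9.52 on the control array (0.23, 1 probe set). The kinase genes BUB1 (10.54 on the knockdown array, 10.58 on the control array) and TTK (8.92 on the knockdown array, 8.99 on the control array) lay slightly below 0, within the spread of probe sets. BUB3 differed by 0.08, with probe sets on both sides of 0, from -0.13 to 0.24. CDC20, the APC/C activator that the checkpoint restrains, read 10.70 on the knockdown array and 10.83 on the control array (-0.13), and its other probe set past the floor differed by -0.36. UBE2C, the ubiquitin-conjugating enzyme of the APC/C, read 12.62 on the knockdown array and 12.58 on the control array, with 4 probe sets from 0.03 to 0.19. ESPL1, the protease separase that cuts cohesin at anaphase, read 8.91 on the knockdown array and 8.75 on the control array (0.16). So MAD2L1 and CDC20 leaned in opposite directions in all their probe sets past the floor, each by less than 0.32 at the brightest one.

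Kinetochore and centromere genes held the widest differences, with 13 of 14 past the floor above 0, against 53.4% of all genes, and a median of 0.23. SPC24, a subunit that ties the Ndc80 complex to the inner kinetochore, read 7.72 on the knockdown array and 6.72 on the control array, 1.99-fold higher (0.99). A higher difference than that of SPC24 was found for 0.77% of genes past the floor. Its other 4 probe sets lay below the floor and were higher by less, from 0.18 to 0.39, and the mean over all 5 was 0.41, so the size rests on 1 probe set. SPC25, its partner, read 7.97 on the knockdown array and 7.43 on the control array (0.53, 1.45-fold), on 1 probe set. NDC80, which contacts the microtubule, read 9.83 on the knockdown array and 9.56 on the control array (0.27). NUF2, its partner, read 9.14 on the knockdown array and 9.50 on the control array, 1.28-fold lower (-0.36), and was the only one of the 53 lower by more than 0.32. The transcripts of this complex thus lay on both sides of 0, with 1 probe set past the floor for each.

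CENPK, CENPI, CENPM and CENPN belong to the constitutive centromere network, which sits on centromeric chromatin through the cell cycle. CENPK read 8.65 on the knockdown array and 7.79 on the control array, 1.81-fold higher (0.86), on its only probe set. CENPN, which binds the CENPA nucleosome, read 9.80 on the knockdown array and 9.41 on the control array (0.39), and its 3 probe sets past the floor were at 0.39, 0.45 and 0.97. CENPM read 8.08 on the knockdown array and 7.72 on the control array (0.36). CENPI, below the floor, read 6.53 on the knockdown array and 5.94 on the control array (0.59). Its dimmer probe sets differed by 0.28 and 0, and the mean over all 3 was 0.29. All 4 of these genes were higher on the knockdown array at their brightest probe set, against 53.4% of all genes past the floor. CENPA itself, the histone variant that marks the centromere, read 9.55 on the knockdown array and 9.44 on the control array (0.11), with probe sets on both sides of 0. The outer kinetochore motor gene CENPE (8.50 on the knockdown array, 8.40 on the control array) and the corona gene CENPF (9.40 on the knockdown array, 9.32 on the control array) were near level at their brightest probe sets. The other probe set of CENPF differed by 0.22.

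The chromosomal passenger complex corrects faulty attachments and later acts in cytokinesis. Its kinase gene AURKB read 10.16 on the knockdown array and 10.13 on the control array (0.03). CDCA8, which encodes borealin, read 10.14 on the knockdown array and 9.69 on the control array, 1.36-fold higher, and both of its probe sets differed by 0.44. BIRC5, which encodes survivin, read 10.35 on the knockdown array and 10.16 on the control array, and all 9 of its probe sets past the floor were above 0, from 0.03 to 0.45 (0.19 ± 0.12, SD over probe sets). INCENP, the scaffold, read 7.90 on the knockdown array and 7.75 on the control array (0.15). All 4 subunits were above 0, against 53.4% of all genes, with AURKB level with the median of all genes (0.03). CDCA8 alone passed 0.32, against 18.0% of all genes that were higher.

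**Figure D4:**
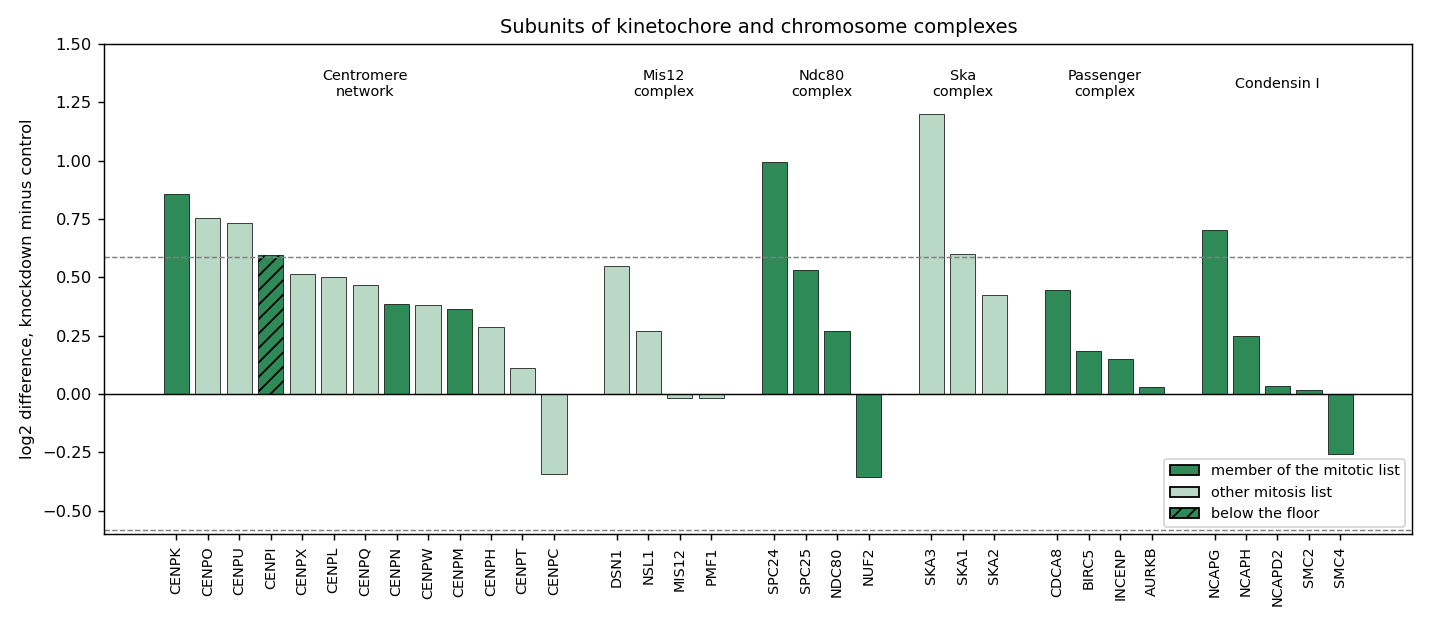
Log2 difference (UGT8 knockdown array minus control array, vertical axis) of subunits in 6 complexes, 1 bar a gene at its brightest probe set. Dark bars are mitotic genes of the main list, pale bars are genes of the other mitosis list past the floor, the hatched bar (CENPI) lies below the floor, and dashed lines mark 1.5-fold; NUF2, CENPC and SMC4 are the bars furthest below 0.

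Genes of the spindle and cytokinesis were slightly above 0 in 14 of 16 cases, against 53.4% of all genes (median 0.10). None reached 1.5-fold, where 4.96% of all genes were higher and 6.74% lower. TPX2, which activates AURKA and nucleates microtubules, read 11.12 on the knockdown array and 10.75 on the control array, 1.30-fold higher (0.38), and was the one of the group past 0.32. It was read by its only probe set, of the kind whose probes can match other transcripts. AURKA read 11.28 on the knockdown array and 11.20 on the control array (0.09). The 6 kinesin genes had a median of 0.12, from -0.08 to 0.28. Among them KIF11, the motor that separates spindle poles, read 10.21 on the knockdown array and 9.92 on the control array (0.28), with its other probe set at 0.20. KIF4A, a chromosome-bound motor, read 8.34 on the knockdown array and 8.07 on the control array (0.27). KIF23, of the central spindle, differed by 0.16 and 0.33 in its probe sets. KIF20B (0.07), the microtubule depolymeriser gene KIF2C (0.04) and KIF20A (-0.08), a motor of the central spindle, lay within the spread of probe sets.

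Of the microtubule-associated genes, NUSAP1 was higher in all 3 probe sets (0.16 to 0.32) and PRC1, which bundles the central spindle, in all 3 past the floor (0.15 to 0.30). HMMR read 8.04 on the knockdown array and 7.90 on the control array (0.14). CKAP5, a microtubule polymerase gene, differed by 0.04, with its other probe set at 0.16. CKAP2 differed by 0.08, with probe sets from -0.18 to 0.08. DLGAP5, of the spindle, read 10.77 on both arrays. ANLN, the scaffold of the contractile ring, read 11.35 on the knockdown array and 11.23 on the control array (0.12). ECT2, the exchange factor that starts furrowing, read 10.01 on the knockdown array and 10.11 on the control array (-0.10), and its other probe set differed by -0.25. Cytokinesis genes were therefore found on both sides of 0 within this narrow range.

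Condensin subunits were spread from -0.26 to 0.70. NCAPG, a HEAT-repeat subunit of condensin I, read 9.70 on the knockdown array and 8.99 on the control array, 1.63-fold higher (0.70), and its dimmer probe set, below the floor, read 6.00 on the knockdown array and 4.79 on the control array. NCAPH, the kleisin subunit that closes the ring, read 9.82 on the knockdown array and 9.57 on the control array (0.25). NCAPD2, the other HEAT-repeat subunit, read 8.94 on the knockdown array and 8.91 on the control array, and both of its probe sets differed by 0.03. The ATPase gene SMC2 read 9.32 on the knockdown array and 9.30 on the control array, with 7 probe sets from -0.06 to 0.28. Its partner SMC4 read 10.34 on the knockdown array and 10.59 on the control array, 1.20-fold lower (-0.26), with 4 probe sets from -0.26 to 0.02. TOP2A, the topoisomerase that untangles sister chromatids, read 11.52 on the knockdown array and 11.60 on the control array (-0.07), and its other probe sets differed by -0.18 and -0.26. NCAPG stood apart from the other subunits of its own complex.

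Other genes of mitosis were drawn from a list of 79 that shares no gene with the 55, chosen with earlier results of these data known. Of the 75 past the floor, 60 were above 0 (53.4% of all genes were), with a median of 0.27. At least 1.5-fold, 10 (13.3%) were higher, against 4.96% of all genes, and none was lower, against 6.74%. The highest was SKA3, of the Ska complex that follows shrinking microtubules, at 8.70 on the knockdown array and 7.50 on the control array (1.20, 2.29-fold). CDCA5, the cohesin protector sororin, read 10.08 on the knockdown array and 9.07 on the control array (1.01). The others past 1.5-fold were OIP5 (0.83), ZWINT (0.79), TRIP13 (0.77), CENPO (0.75), ZWILCH (0.74), CENPU (0.73), CDCA3 (0.65) and SKA1 (0.60). CENPO read 7.28 on the knockdown array and 6.53 on the control array, so it passed the floor of 6.64 through the knockdown array alone. Of the 10 past 1.5-fold, SKA3, SKA1, ZWINT, ZWILCH, CENPO and CENPU encode proteins of the centromere or kinetochore, and OIP5 and TRIP13 act in CENPA loading and checkpoint silencing. The list itself holds many genes of the centromere and kinetochore, so their number among the 10 is no result about them. Of the centromere network in this list, 8 of 9 genes past the floor were above 0 (median 0.47), and CENPC, its chromatin-binding base, was lower (6.57 on the knockdown array, 6.91 on the control array, -0.34). CENPC passed the floor through the control array alone, and its probe set is of the kind whose probes can match other transcripts. Like CENPO, CENPH passed it through the knockdown array alone (6.81, against 6.52 on the control array). The proliferation marker MKI67 read 10.33 on the knockdown array and 10.08 on the control array (0.25), with 6 probe sets from 0.21 to 0.36.

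Genes of DNA replication showed how far apart a cell cycle list could stand on these arrays. Of 24 replication genes, 23 lay past the floor. All 23 were above 0, against 53.4% of all genes, and 20 (87.0%) were at least 1.5-fold higher, against 4.96%. The median was 0.86. MCM5 passed the floor of 6.64 through the knockdown array alone (6.78, against 6.50 on the control array). The replication list was chosen with earlier results of these data known. GINS2, a subunit of the replicative helicase, read 8.16 on the knockdown array and 6.80 on the control array (1.36), and MCM10, which helps to start forks, 8.83 on the knockdown array and 7.48 on the control array (1.35). The highest of the 53 mitotic genes, SPC24 at 0.99, lay below 6 of the 23. With 1 array a group the difference between the lists was not tested. In cells grown as a culture, a change in the share of cells in a phase and a change in transcript per cell cannot be told apart.

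**Figure D5:**
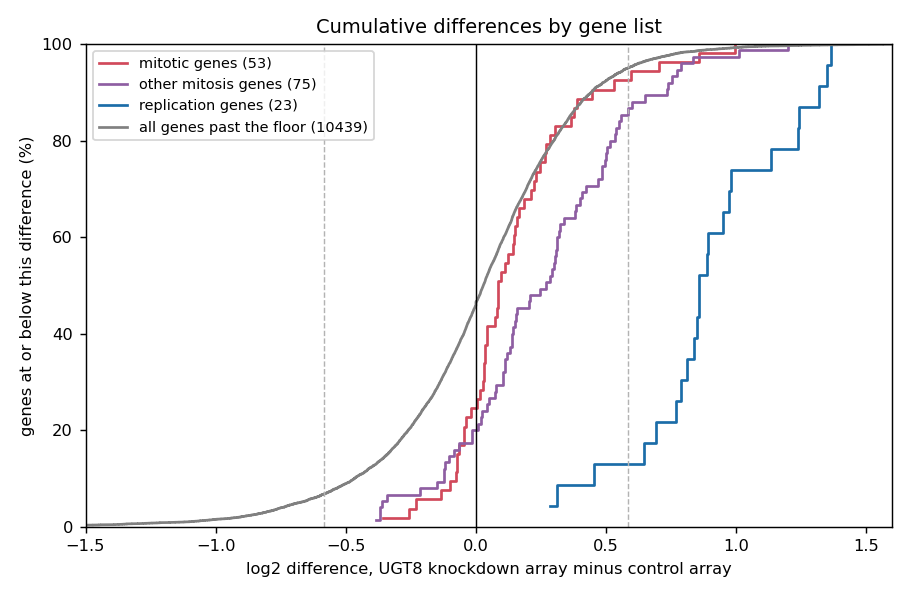
Share of genes at or below each log2 difference (UGT8 knockdown array minus control array), for the 53 mitotic genes, 75 other mitosis genes, 23 replication genes and all 10439 genes past the floor. The curve of the mitotic genes is steep near 0 and starts at -0.36, that of the other mitosis genes lies to its right over most of its length, and that of the replication genes starts at 0.29.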

How the data were processed

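Total RNA of MDA-MB-231 cells was hybridised as biotin-labelled cRNA to Affymetrix arrays, 1 of a UGT8-knockdown clone and 1 of control cells. The values the authors deposited are on the log2 scale and were made with RMA, per the submitters' processing notes. The sources used here do not name its software, its version or a genome build. Probe sets were named from the platform annotation, updated to RefSeq GRCh38.p14 symbols (18201 of 18244 found). Of 49495 probe sets, 102 were controls, 45278 had 1 symbol and were used, 1333 carried several symbols, and 2782 were unnamed in that table.

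The probe set with the highest mean stood for each gene, and genes with a mean under 6.64 were left out of counts. Genes were counted at 1.5-fold. There is 1 array a group, so no test was run. Precision is limited by the number of arrays. The mitotic genes, the other lists and the rules were chosen with earlier results of these data known. The grouping into complexes and the choice of promoter windows were made after their values were seen. Every mitotic gene was named by rule, as were other mitosis genes past 1.5-fold and the 2 highest replication genes; CENPC and MKI67 were named after their values were seen. Counting was checked on simulated data. Alternatives changed the floor, the probe set, cross-hybridising probe sets, the centring and the fold threshold. Python 3.11.15, pandas 2.3.3, numpy 2.4.6 and statsmodels 0.14.6 were used.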

Additional observations from a re-analysis of the deposited data

How the results depend on the processing

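Of 138 recomputed values, 110 stayed close to the reported one: within 1.5 times for a count, or within the median SD between probe sets (0.08) with the same sign for a median. Centring on the hybridisation controls gave 0 mitotic genes at least 1.5-fold higher, 8 lower and 5 above 0, where 0.479% of all genes were higher and 37.1% lower. Medians on that scale were -0.43 for all mitotic genes, -0.53 for the cyclin, -0.45 for the checkpoint, -0.28 for the kinetochore, -0.41 for the spindle and -0.49 for the condensin group, with 1 other mitosis gene higher, 12 lower, a median of -0.24, and a replication median of 0.34. On the poly-A controls the checkpoint median was -0.018 and the condensin median -0.052. The condensin median was -0.0037 after centring on the median of all genes and -0.0062 after the loess curve with a fraction of 0.3. The cyclin median was 0.041 with probe sets averaged, over all or over those past the floor. The checkpoint median was 0.16 without cross-hybridising probe sets.

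The floor at the 75th percentile left 2 mitotic and 6 other mitosis genes at least 1.5-fold higher, against 4.03% of all genes past that floor. At a lower threshold, a log2 difference of 0.32, 9 mitotic genes were higher and 1 lower, against 18.0% and 16.1% of all genes, and 29 other mitosis genes were higher and 5 lower. At 2-fold, 0 mitotic and 2 other mitosis genes were higher, against 0.738% of all genes. FOXM1 was below 1.5-fold under centring on the median of all genes, by loess or on either set of controls; NCAPG and CENPK were past 1.5-fold under every setting with that threshold but the hybridisation controls and, for CENPK, the floor at the 75th percentile. CENPN passed 1.5-fold when its probe sets past the floor were averaged, and SPC24 lay below the floor when it was set at the 75th percentile or when all probe sets were averaged. The causes were not tested. No paired analysis was possible because each group holds 1 array.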

Other observations

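Complexes that surround the mitotic genes differed in how their subunits stood on the arrays; they were grouped after their values were seen. Of 14 subunits of the APC/C, the ubiquitin ligase of anaphase, 11 were above 0, against 53.4% of all genes, with a median of 0.14 and a range from -0.12 to 0.48. ANAPC16, ANAPC2 and CDC26 were below 0. ANAPC4 read 8.89 on the knockdown array and 8.40 on the control array, and CDC23 read 9.49 on the knockdown array and 9.08 on the control array. Probe sets of CDC16 disagreed, from -0.44 to 0.37. The 3 subunits of the RZZ complex, which brings the checkpoint to kinetochores, were above 0 (ZWILCH 0.74, KNTC1 0.53, ZW10 0.32), as were the 3 of the Ska complex (median 0.60). In the Mis12 complex, the link between centromere and microtubule, DSN1 was at 0.55 and NSL1 at 0.27, while MIS12 and PMF1 were both at -0.02.

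Of 11 genes of cohesin, which holds sister chromatids together, and its regulators, 6 were above 0 and 5 below (median 0.02). CDCA5 (1.01), named above, was at least 1.5-fold higher, and the other 10 were within 1.5-fold, among them the cohesin protector genes SGO1 (0.38) and SGO2 (0.12). SGO1 passed the floor of 6.64 through the knockdown array alone (7.02, against 6.63 on the control array). STAG2 read 9.95 on the knockdown array and 10.33 on the control array, with 4 probe sets from -0.40 to -0.35, and RAD21, the kleisin, was lower in all 4 of its probe sets, from -0.13 to -0.04. PDS5A differed by -0.37, with probe sets from -0.37 to 0.19. ASPM, a spindle pole gene, read 9.69 on the knockdown array and 10.05 on the control array (-0.36), and CIT, the citron kinase of cytokinesis, 8.60 on the knockdown array and 8.97 on the control array (-0.37). These genes outside the reported rule were named after their values were seen.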
